A study of Mus musculus with 16 samples.

Results

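The integrated stress response and the unfolded protein response of mouse CD8+ T cells were followed through 10 genes, Atf4, Ddit3, Trib3, Chac1, Asns, Atf3, Ppp1r15a, Hspa5, Xbp1 and Herpud1. They were picked by symbol out of 55536 annotated genes, by a rule that uses no measured value but with earlier results of these data known, and all 10 passed the filter on low counts. OT-I CD8+ cells, whose transgenic receptor sees the SIINFEKL peptide of ovalbumin, had been electroporated with Cas9 plus either a scrambled guide (Control gRNA) or one that cuts Tardbp (Tardbp gRNA), the gene of the RNA-binding protein TDP-43. Cells of both groups had then gone into C57BL/6J recipients given the peptide and agonist antibodies to OX40 and 4-1BB. They were sorted from spleen and lymph nodes on day 4 by the labels, or somewhat earlier by the methods, and 8 libraries of each group, from separate recipients, were sequenced.

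Both groups therefore share the OT-I receptor, the recombinase-deficient OT-I donor strain, Cas9, antigen and costimulation, and no untreated or antigen-only cells were analysed here. By the study's methods mice of both sexes were used, and the age of the mice behind these libraries is not given in the labels. The study's text also speaks of a stimulation between purification and sequencing that the labels and methods do not describe, so whether these cells were stimulated again is not known here. The Tardbp gRNA cells are a mixture of cells with different edits and not a clone. Tardbp RNA fell from 192.4 ± 13.3 to 134.9 ± 11.3 CPM (counts scaled to a library of fixed size; mean ± SD, n = 8 per group), or 70.1% of the Control level, with no overlap between the groups. RNA counts do not measure the protein, which the study reports as absent by immunoblot of pooled cells given the Tardbp guide. Libraries held 56016533 to 94801105 estimated counts in annotated genes. All 5 CD8 T cell markers were present, summing to between 3068 and 3835 CPM in Control gRNA and between 4758 and 6080 CPM in Tardbp gRNA. Each of the 5 was higher in Tardbp gRNA, by 0.44 (Cd3e) to 0.75 (Cd3g) on the log2 scale (edgeR adjusted p at most 1.25e-05). Of all tested genes, 23.5% were higher at an adjusted p under 0.05. Libraries numbered 1 to 3 stood apart from those numbered 4 to 8 in both groups on the second principal component (8.60% of the variance), a division that no label names. The deposited RNA concentration before dilution, which has no unit, lay between 34.9 and 197.1 for Control gRNA and between 10.1 and 24.0 for Tardbp gRNA. It did not overlap between the groups, so the guide and the amount of RNA cannot be told apart.

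In the integrated stress response, kinases that sense amino acid shortage, double-stranded RNA, haem shortage or misfolded protein in the endoplasmic reticulum (ER) phosphorylate the initiation factor eIF2. General translation slows, while upstream reading frames let the ATF4 messenger be translated, so that ATF4 is set mainly at translation, which RNA counts do not measure. ATF4 and its dimer partners switch on amino acid transporters, amino acid synthesis, tRNA synthetases and further transcription factors such as CHOP. In the unfolded protein response, the ER sensors PERK, IRE1 and ATF6 raise chaperones and the machinery that degrades misfolded ER protein. Dividing effector T cells make protein at a high rate and draw on both programs.

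The DNA elements that define these programs were looked up in the RefSeq promoter windows of the 10 genes (GRCm38.p6, 250 bases before to 50 after the annotated start), all 10 of which were found. The letters searched, on both strands, were TGATGNAA for the core of the C/EBP-ATF element (CARE) that ATF4 binds, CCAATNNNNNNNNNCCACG for the ER stress element (ERSE), ATTGGNCCACG for ERSE-II, and TGACGTCA for the cyclic AMP response element (CRE). Of 32851 windows, 3.97% held the CARE core, 0.119% the ERSE, 0.0365% the ERSE-II and 1.79% the CRE (39 windows held the ERSE and 12 the ERSE-II). No matches in the 10 windows overlapped. A match describes letters and does not show that a factor binds there. The lack of a match does not show that no element lies in the window or beyond it.

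The 250 bases before the start are shown for the 4 genes whose RNA differed between the groups, since each holds a match to a different searched pattern, or to none. Capitals mark the matched letters.
Asns upstream bases (chr6:7693210-7693459, minus strand): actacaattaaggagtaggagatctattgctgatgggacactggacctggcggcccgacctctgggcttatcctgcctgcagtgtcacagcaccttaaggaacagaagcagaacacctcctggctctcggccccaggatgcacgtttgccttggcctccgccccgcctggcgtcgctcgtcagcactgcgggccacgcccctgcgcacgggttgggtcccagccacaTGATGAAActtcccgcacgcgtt
Hspa5 upstream bases (chr2:34771840-34772089, plus strand): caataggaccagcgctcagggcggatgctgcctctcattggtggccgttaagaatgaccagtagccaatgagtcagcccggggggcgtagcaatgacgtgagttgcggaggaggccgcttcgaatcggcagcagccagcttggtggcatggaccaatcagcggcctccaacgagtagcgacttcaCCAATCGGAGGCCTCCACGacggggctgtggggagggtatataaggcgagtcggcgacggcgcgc
Ppp1r15a upstream bases (chr7:45526269-45526518, minus strand): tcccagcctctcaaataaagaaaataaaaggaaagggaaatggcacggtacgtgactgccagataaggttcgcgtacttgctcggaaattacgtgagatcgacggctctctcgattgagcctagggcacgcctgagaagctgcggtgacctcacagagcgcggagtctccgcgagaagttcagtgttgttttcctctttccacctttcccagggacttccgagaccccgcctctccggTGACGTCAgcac
Ddit3 upstream bases (chr10:127290543-127290792, plus strand): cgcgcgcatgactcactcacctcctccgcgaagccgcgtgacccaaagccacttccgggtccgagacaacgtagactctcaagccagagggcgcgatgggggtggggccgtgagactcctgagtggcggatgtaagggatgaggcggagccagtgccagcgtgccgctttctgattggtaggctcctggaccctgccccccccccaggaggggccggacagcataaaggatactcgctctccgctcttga

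Starts are those of RefSeq. The GENCODE M21 models of Asns, Hspa5 and Ddit3 begin earlier, inside the bases shown (at chr6:7693254, chr2:34771970 and chr10:127290774). By those models the Asns and Hspa5 matches lie after the start. The Asns match is a CARE core that begins 23 bases before the start, and that of Hspa5 is an ERSE that begins 65 bases before it. The Ppp1r15a match is a CRE that begins 12 bases before the start. No searched letters were found in the Ddit3 window, nor in those of Atf4 and Xbp1. The Ddit3 bases do hold, on the opposite strand, an ERSE-like stretch that ends in GCACG where the letters searched end in CCACG. The remaining matches are shown as windows of 30 bases, because they show which of the genes not called in the comparison of all 16 libraries share the element with Asns. Capitals mark the match, and the letters of the CARE core appear here as their reverse complement.
Trib3 CARE core (chr2:152344028-152344057, minus strand): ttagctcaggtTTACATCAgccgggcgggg
Chac1 CARE core (chr2:119351038-119351067, plus strand): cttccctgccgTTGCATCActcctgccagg
Atf3 CARE core (chr1:191183425-191183454, minus strand): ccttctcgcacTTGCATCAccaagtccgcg
Herpud1 CARE core (chr8:94386306-94386335, plus strand): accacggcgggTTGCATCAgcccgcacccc
Herpud1 ERSE-II (chr8:94386367-94386396, plus strand): ccgggcgctgATTGGGCCACGttggacact

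The CARE core was thus in 5 of the 10 windows, and Herpud1 held an ERSE-II beside it. Among 29 listed ATF4 and CHOP targets with a window, 7 held the CARE core. Of 22 ER chaperones and folding enzymes with a window, 7 held the ERSE and 1 the ERSE-II. By the RefSeq starts, the match of Trib3 begins at base 15 of the transcribed part, and those of Chac1, Atf3 and Herpud1 begin 193, 110 and 112 bases before the start. The GENCODE M21 model of Trib3 starts at chr2:152344032, so by that model its match lies before the start.

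Of the 10 genes, 4 were called at an edgeR adjusted p under 0.05, with Ddit3 and Ppp1r15a higher and Asns and Hspa5 lower in Tardbp gRNA. Across all 16650 genes tested, 46.7% were called, 23.5% higher and 23.3% lower, so 4 of 10 is near the share of all genes. The groups overlapped for all 10 genes, where 16.9% of all tested genes had no overlap. The median log2 fold change was -0.15 for the 10 genes and 0.05 for all tested genes. The genes spanned a wide range of levels. In RPKM (CPM divided by the exon length in kilobases) the Control means were 465.1 for Hspa5, 52.7 for Atf4, 46.5 for Xbp1, 44.9 for Herpud1 and 14.6 for Asns. They were 4.5 for Ppp1r15a, 4.29 for Ddit3, 1.81 for Trib3, 0.133 for Chac1 and 0.102 for Atf3. Xbp1 and Herpud1 lay within each other's SD, as did Ppp1r15a and Ddit3, and Chac1 and Atf3.

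**Figure D1:**
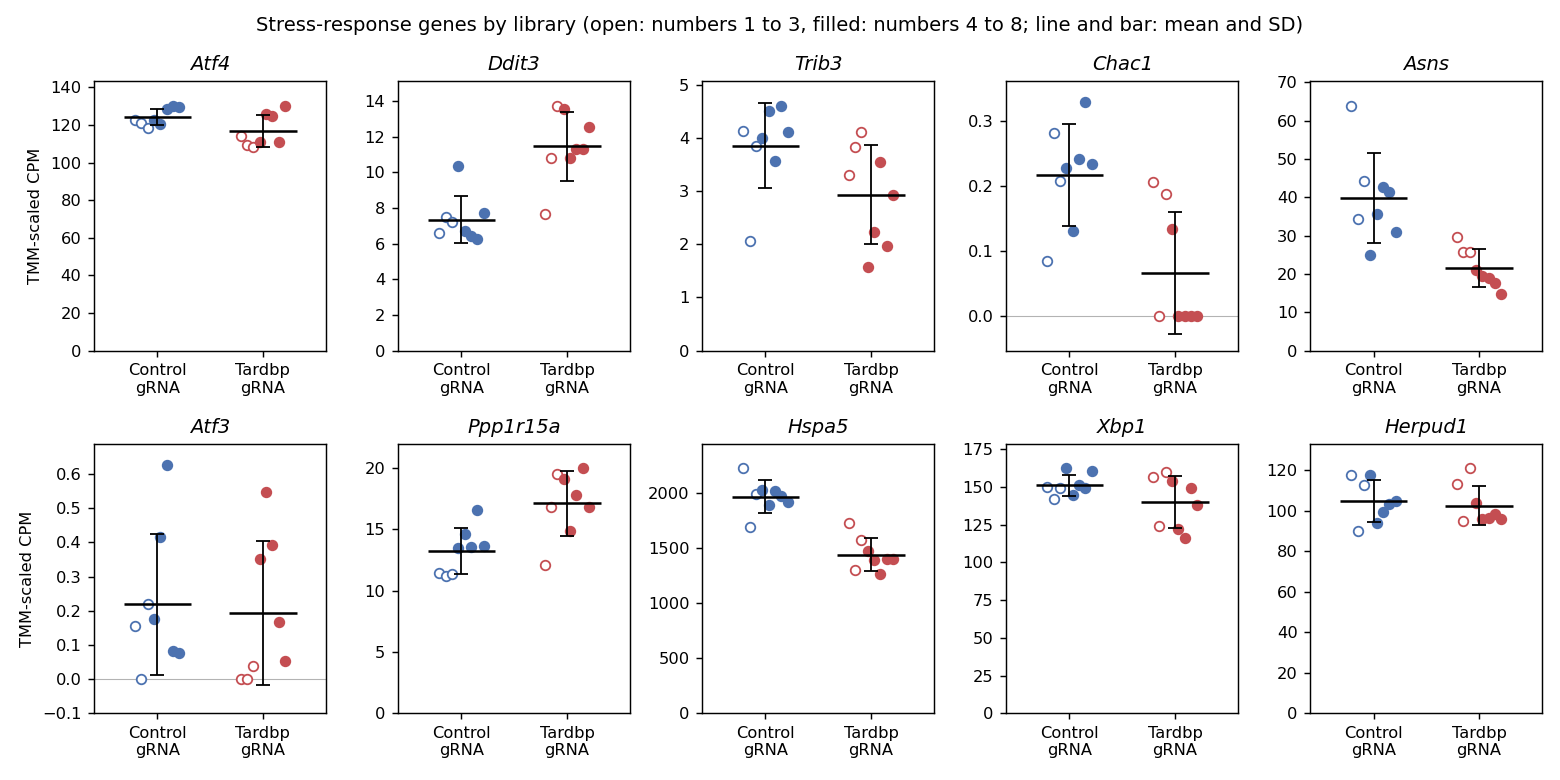
CPM of each of the 10 genes in the 8 Control gRNA and 8 Tardbp gRNA libraries, with the group mean (line) and SD (bar); open points are libraries numbered 1 to 3, filled points those numbered 4 to 8, and each vertical axis has its own scale. In 7 of 8 Tardbp gRNA libraries Ddit3 lay above and Hspa5 lay below all Control gRNA libraries, while Chac1 was at 0 in 5 of 8 Tardbp gRNA libraries.

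Atf4 (ENSMUSG00000042406.8, chr15:80255184-80257541), the transcription factor at the centre of the integrated stress response, had nearly the same RNA level in both groups. Its lowest, median and highest values were 118.5, 122.8 and 130.1 CPM in Control gRNA, and 108.3, 112.8 and 130.3 CPM in Tardbp gRNA. The Tardbp gRNA values split into 5 libraries below every Control library and 3 above the Control median, so the groups overlapped. This was a log2 fold change of -0.09 with an SE of 0.04 (edgeR adjusted p 0.114). Permuting the 16 libraries exactly (two-sided) gave p = 0.048 on log2 CPM and p = 0.0521 on CPM, both unadjusted. Leaving out the Tardbp gRNA library numbered 5, 6 or 8, the 3 with the highest values, brought the edgeR adjusted p to 0.0306, 0.0387 and 0.0138. The bulk of the counts came from the protein-coding Atf4-201, at 0.901 ± 0.046 of the gene in Control gRNA and 0.893 ± 0.026 in Tardbp gRNA (SD, n = 8 per group), and its share was not called by limma.

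Ddit3 (ENSMUSG00000025408.15, chr10:127290774-127296288), which encodes the transcription factor CHOP, rose. It had 6.24, 6.95 and 10.3 CPM as lowest, median and highest value in Control gRNA, and 7.67, 11.3 and 13.7 CPM in Tardbp gRNA. In the Tardbp gRNA group, 7 libraries exceeded the highest Control library and all 8 exceeded the Control median. The mean was 156% of Control, or 0.64 on the log2 scale (SE 0.12, edgeR adjusted p 0.00024; exact two-sided permutation p 0.000466). The overlap came from number 1 of Tardbp gRNA (7.67 CPM), which lay below Control libraries 4 (10.3 CPM) and 8 (7.74 CPM). Ddit3-201, a protein-coding transcript with 0.898 of the gene's counts in Control gRNA, rose alike (log2 fold change 0.61, SE 0.13, edgeR adjusted p 0.00434). A second annotation entry, ENSMUSG00000116429.1, also carries the symbol and lies inside Ddit3 on the same strand (chr10:127290829-127293753). It had at most 1 count in any library and was not tested, and reads of the shared stretch could be assigned to either entry.

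Ppp1r15a (ENSMUSG00000040435.12, chr7:45522916-45526268) encodes GADD34, which guides protein phosphatase 1 to eIF2 and so ends the response, and it rose as well. The lowest, median and highest values were 11.2, 13.5 and 16.6 CPM in Control gRNA and 12.1, 17.3 and 19.97 CPM in Tardbp gRNA. In Tardbp gRNA 6 libraries were above all Control libraries, and 1, again number 1, was below the Control median. The rise was 0.37 on the log2 scale (SE 0.10, edgeR adjusted p 0.00686; exact two-sided permutation p 0.00762). The 3 Control libraries numbered 1 to 3 were the lowest of all 16, at 11.2 to 11.4 CPM. Ppp1r15b, the constitutive counterpart of GADD34, went the other way, with 66.2 ± 8.73 CPM (SD, n = 8) in Control gRNA against 46.5 ± 8.16 CPM (SD, n = 8) in Tardbp gRNA (log2 fold change -0.51, SE 0.11, edgeR adjusted p 0.000684). Ppp1r15b was named after its values were seen.

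Trib3 (ENSMUSG00000032715.9, chr2:152337422-152344032), a pseudokinase gene switched on by ATF4 and CHOP, did not pass the test. Its lowest, median and highest values were 2.06, 4.06 and 4.61 CPM in Control gRNA and 1.57, 3.11 and 4.11 CPM in Tardbp gRNA. The groups overlapped broadly, although 7 of the 8 Tardbp gRNA libraries were below the Control median. Its difference was -0.39 on the log2 scale (SE 0.20, edgeR adjusted p 0.11; exact two-sided permutation p 0.0702). The value was -0.77 (edgeR adjusted p 0.00878) in numbers 4 to 8 alone and 0.14 (edgeR adjusted p 0.799) in numbers 1 to 3 alone. A test of that difference, added after these values were seen, gave -0.93 (SE 0.35, unadjusted edgeR p 0.0175, adjusted p 0.9997). Without the Control library numbered 2, which was the lowest of its group, the log2 fold change was -0.49 (edgeR adjusted p 0.0337).

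Chac1 (ENSMUSG00000027313.3, chr2:119351229-119354381) encodes a glutathione-degrading enzyme and was close to the detection limit, with 6 to 28 counts per Control library and 0 to 17 per Tardbp gRNA library. The lowest, median and highest values were 0.0853, 0.23 and 0.328 CPM in Control gRNA, while in Tardbp gRNA 5 libraries were at 0 and the other 3 had 0.134 to 0.207 CPM. All 8 Tardbp gRNA values were below the Control median. With a log2 fold change of -1.65 and an SE of 0.78 it did not pass (edgeR adjusted p 0.0927), while exact two-sided permutation of its log2 CPM gave an unadjusted p of 0.00684. The unadjusted edgeR p was 0.049. Chac1 passed in numbers 4 to 8 alone, where the log2 fold change was -2.88 (edgeR adjusted p 0.0351), and without the Tardbp gRNA library numbered 1 (-2.18, edgeR adjusted p 0.0425).

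Asns (ENSMUSG00000029752.12, chr6:7675169-7693254), which encodes asparagine synthetase, had the largest fall among the called genes of the 10. Its lowest, median and highest values were 24.96, 38.6 and 63.9 CPM in Control gRNA and 14.8, 20.1 and 29.6 CPM in Tardbp gRNA. In Tardbp gRNA all 8 libraries were below the Control median and 5 were below every Control library. The overlap lay between the 3 Tardbp gRNA libraries numbered 1 to 3 (25.6 to 29.6 CPM) and the Control library numbered 4 (24.96 CPM). The mean was 54.2% of Control, or -0.88 on the log2 scale (SE 0.17, edgeR adjusted p 0.000294; exact two-sided permutation p 0.000622). Asns-201 carried the change (-0.93, SE 0.19, edgeR adjusted p 0.00232), and no other annotated Asns transcript exceeded a mean of 0.0202 CPM. Within numbers 1 to 3, with 3 libraries per group, Asns was the single gene of the 10 that was called (-0.84, edgeR adjusted p 0.0409).

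Atf3 (ENSMUSG00000026628.13, chr1:191170296-191218039), a stress-induced transcription factor gene, was barely detected. It had 0 to 57 counts per Control library and 0 to 35 per Tardbp gRNA library, with medians of 0.167 and 0.11 CPM and highest values of 0.626 and 0.546 CPM. Libraries at 0 were found in both groups, 1 of Control gRNA and 2 of Tardbp gRNA. The log2 fold change of -0.19 had an SE of 0.83 (edgeR adjusted p 0.874), so no difference was detectable at this depth.

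Hspa5 (ENSMUSG00000026864.13, chr2:34771970-34777547) encodes BiP, the main chaperone of the ER and the most abundant of the 10 transcripts, and it fell. The lowest, median and highest values were 1689, 1983 and 2226 CPM in Control gRNA and 1265, 1398 and 1731 CPM in Tardbp gRNA. In Tardbp gRNA 7 libraries were below every Control library, and number 1 exceeded the lowest Control library by less than the SD of either group. The mean was 73.3% of Control, or -0.45 on the log2 scale (SE 0.06, edgeR adjusted p 9.27e-06; exact two-sided permutation p 0.000311). Both main transcripts fell, Hspa5-202 by 0.44 on the log2 scale (SE 0.08, edgeR adjusted p 0.000722) and the longer Hspa5-201 by 0.78 (SE 0.15, edgeR adjusted p 0.00135).

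Xbp1 (ENSMUSG00000020484.18, chr11:5520659-5525893) encodes the transcription factor that IRE1 activates by cutting a short element out of its messenger. Its RNA was 141.8, 149.7 and 162.4 CPM (lowest, median and highest) in Control gRNA and 116.0, 143.6 and 160.2 CPM in Tardbp gRNA. Here 4 Tardbp gRNA libraries, numbers 2, 5, 6 and 8, were below every Control library and the other 4 lay within the Control range, so that the SD was 17.4 CPM in Tardbp gRNA and 7.05 CPM in Control gRNA. This difference of -0.11 on the log2 scale did not pass (SE 0.07, edgeR adjusted p 0.174). Without the Tardbp gRNA library numbered 1 it was -0.16 (edgeR adjusted p 0.0453).

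The element of 26 bases that IRE1 removes is shown because it limits what the count tables can say; capitals mark it within its exon, read from the GENCODE M21 transcript sequences.
Xbp1 element in exon 4 of Xbp1-201 (chr11:5524264-5524319, plus strand): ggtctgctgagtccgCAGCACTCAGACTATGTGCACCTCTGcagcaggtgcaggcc

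The element was in all 3 annotated protein-coding Xbp1 transcripts, and no annotated Xbp1 transcript had an intron of 26 bases. A messenger with the element and a messenger without it are thus counted under the same transcripts, and IRE1 activity cannot be read from these tables. Xbp1-201 held 0.956 ± 0.0061 of the Xbp1 counts in Control gRNA and 0.960 ± 0.01 in Tardbp gRNA (SD, n = 8 per group).

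Herpud1 (ENSMUSG00000031770.16, chr8:94386438-94395377), which encodes an ER membrane protein of the degradation machinery, had 89.8, 103.8 and 117.7 CPM (lowest, median and highest) in Control gRNA. In Tardbp gRNA the values were 94.7, 97.3 and 120.9 CPM. The Tardbp gRNA values lay almost wholly inside the Control range, with 1 library above it. Their log2 difference was -0.03 (SE 0.07, edgeR adjusted p 0.709).

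The 4 calls were the same when any 1 of the 16 libraries was left out. They did not all hold in 2 settings. With numbers 1 to 3 alone, a comparison of 3 against 3 libraries, Asns was called, while Ddit3 (0.56, edgeR adjusted p 0.131), Ppp1r15a (0.48, edgeR adjusted p 0.128) and Hspa5 (-0.39, edgeR adjusted p 0.0884) were not. With log2 RNA concentration added as a covariate 0 of the 10 were called by edgeR and 2 had an unadjusted p under 0.05, with log2 fold changes of 0.52 for Ddit3, 0.49 for Ppp1r15a, -0.51 for Asns and -0.31 for Hspa5 and edgeR adjusted p from 0.094 to 0.325.

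**Figure D2:**
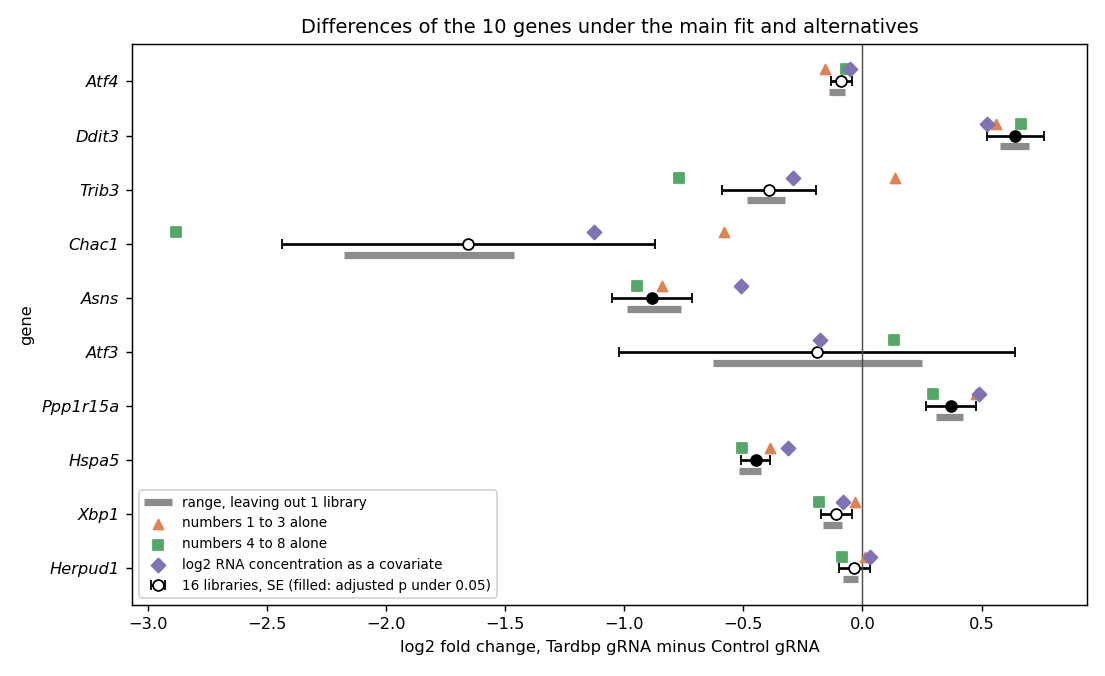
Log2 fold change of each of the 10 genes (circles with SE, filled where the edgeR adjusted p was under 0.05), with the range over the 16 fits that leave out 1 library (grey bars), and the values in numbers 1 to 3 alone, in numbers 4 to 8 alone and with the RNA concentration as a covariate; Atf3 could not be fitted in numbers 1 to 3 alone. The 4 called genes kept their sign in every setting shown, while Trib3, Atf3 and Herpud1 crossed 0.

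The machinery upstream of ATF4 was lower. Of 18 genes of the eIF2 kinases, eIF2, its exchange factor eIF2B and their regulators, 15 were called lower and 1 higher, with a median log2 fold change of -0.29. The called share was 88.9%, against 46.7% of all tested genes (23.3% lower). The groups did not overlap for 8 of the 18, against 16.9% of all tested genes. With upper-quartile scaling, or at an edgeR adjusted p under 0.01, 11 were called lower. All 4 eIF2 kinases fell. Eif2ak4, which encodes the amino acid sensor GCN2, had 18.7 ± 1.94 CPM (SD, n = 8) in Control gRNA and fell to 10.6 ± 1.58 CPM (SD, n = 8), by 0.83 on the log2 scale (SE 0.09, edgeR adjusted p 9.37e-07). Its activator Gcn1l1 fell to a like extent (-0.79, SE 0.09, edgeR adjusted p 1.52e-06), and for both genes the groups did not overlap. Eif2ak3 (PERK) fell by 0.66 on the log2 scale (SE 0.16, edgeR adjusted p 0.0024), and Eif2ak1, the haem-regulated kinase, by 0.24 (SE 0.04, edgeR adjusted p 5.52e-05). Eif2ak2, the kinase PKR, fell by 0.43 (SE 0.17, edgeR adjusted p 0.0461) and lost its call in 15 of 26 alternatives. The exception in direction was Nck1, an adaptor linked to eIF2 dephosphorylation, which rose by 0.31 (SE 0.05, edgeR adjusted p 7.72e-05).

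Of 35 genes that ATF4 and CHOP are known to switch on, 31 were tested, and 15 were called lower and 1 higher, with a median of -0.43. The called share in either direction, 51.6%, is near the 46.7% of all genes. Of its 16 calls 15 were lower, where 23.3% of all tested genes were called lower. For 12 of the 31 the groups did not overlap, against 16.9% of all tested genes. The lowest log2 values among abundant genes belonged to Xpot, the exporter of tRNA from the nucleus (-0.83, SE 0.07, edgeR adjusted p 8.01e-08), and Slc7a5, which encodes a transporter of large neutral amino acids (-0.74, SE 0.16, edgeR adjusted p 0.00097). Next came Shmt2 (-0.60), and Mthfd2 (-0.48) and Phgdh (-0.43), further enzymes of serine and one-carbon metabolism, fell too. The single gene called higher, named after its values were seen, was Bbc3, a cell death gene (1.94 ± 0.549 CPM in Control gRNA and 4.89 ± 1.01 CPM in Tardbp gRNA, SD, n = 8 per group; log2 difference 1.33, SE 0.17, edgeR adjusted p 5.85e-06).

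The aminoacyl-tRNA synthetases, which charge tRNAs and of which several are ATF4 targets, fell throughout. All 12 listed genes were called lower, with a median of -0.56, and for 11 of them the groups did not overlap. Among all tested genes, 23.3% were called lower and 16.9% had no overlap in either direction. Iars had 231.1 ± 21.6 CPM with the Control guide and 120.1 ± 13.7 CPM with the Tardbp guide (SD, n = 8 each), a log2 difference of -0.94 (SE 0.07, edgeR adjusted p 3.25e-08). Gars moved least, at -0.31 (SE 0.08, edgeR adjusted p 0.00374).

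Of the sensors of the unfolded protein response and the proteases and ligase that act with them, 10 of 13 listed genes were tested, and 7 were called lower and 1 higher, with a median of -0.27. This called share of 80% compares with 46.7% of all tested genes, where 23.3% were lower. Atf6 fell by 0.32 on the log2 scale (SE 0.06, edgeR adjusted p 0.000506), as did Mbtps1 (-0.46) and Mbtps2 (-0.53), which encode the proteases that release ATF6. Ern1, the gene of IRE1, had 2.97 ± 0.631 and 2.55 ± 0.852 CPM (SD, n = 8 per group) and was not called (-0.22, SE 0.19, edgeR adjusted p 0.377). Creb3, an ER-bound transcription factor gene, rose by 0.33 (SE 0.06, edgeR adjusted p 0.000103).

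Hspa5 did not fall alone among chaperones. Of 25 ER chaperones and folding enzymes, 15 were called lower and 2 higher, with a median of -0.22. The list's called share of 68% stands beside 46.7% for all tested genes (23.3% lower). For 10 of the 25 the groups did not overlap, against 16.9% of all tested genes. Hyou1, a large ER chaperone, had 47.6 ± 5.67 CPM with the Control guide and 23.0 ± 6.08 CPM with the Tardbp guide (SD, n = 8 each; log2 difference -1.05, SE 0.14, edgeR adjusted p 8.5e-06). Canx (calnexin, -0.76) and Hsp90b1 (GRP94, -0.65) fell as well, with no overlap between the groups for these 3. The 2 that rose were Dnajb9 (0.34, SE 0.09, edgeR adjusted p 0.00572), a BiP co-chaperone, and the cyclophilin gene Ppib (0.17, SE 0.03, edgeR adjusted p 0.000212).

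Of 22 genes of ER-associated degradation, 5 were called lower and 5 higher, and the median was -0.09. The called share of 45.5% is near the 46.7% of all genes. Stt3b (-0.60), of the oligosaccharyltransferase, and Sel1l (-0.57) and Vcp (-0.41), of the pathway that pulls proteins out of the ER, fell. Erlec1 (0.36), Selenok (0.34) and Selenos (0.19) rose.

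Other stress programs were measured for comparison, beside 23.5% of all tested genes called higher and 23.3% called lower. Of 12 genes of the mitochondrial unfolded protein response 10 were called lower and 0 higher (median -0.38), with Hspa9 (-0.75, SE 0.06) and Hspd1 (-0.70, SE 0.07) lowest. Of 17 cytosolic heat shock genes 16 were tested, and 14 were called lower and 0 higher (median -0.54); Hsph1 fell by 0.87 and Hsp90aa1 by 0.69 on the log2 scale. Hspa1b fell by 1.603 (SE 0.40, edgeR adjusted p 0.00277), with the uncertainty that it shares reads with its near-identical copy Hspa1a. The immediate early genes, induced by receptor signals and by stress and many of them encoding transcription factors, went up, with 13 of 20 called higher, 2 lower and a median of 0.58. Egr2 rose by 1.604 (SE 0.26) and Egr1 by 1.12 (SE 0.17) on the log2 scale, while Myc fell by 0.33 (SE 0.07, edgeR adjusted p 0.000411). No list was compared with other genes by a test, and Eif2ak3, Ero1l and Atf5 each stand in 2 lists.

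**Figure D3:**
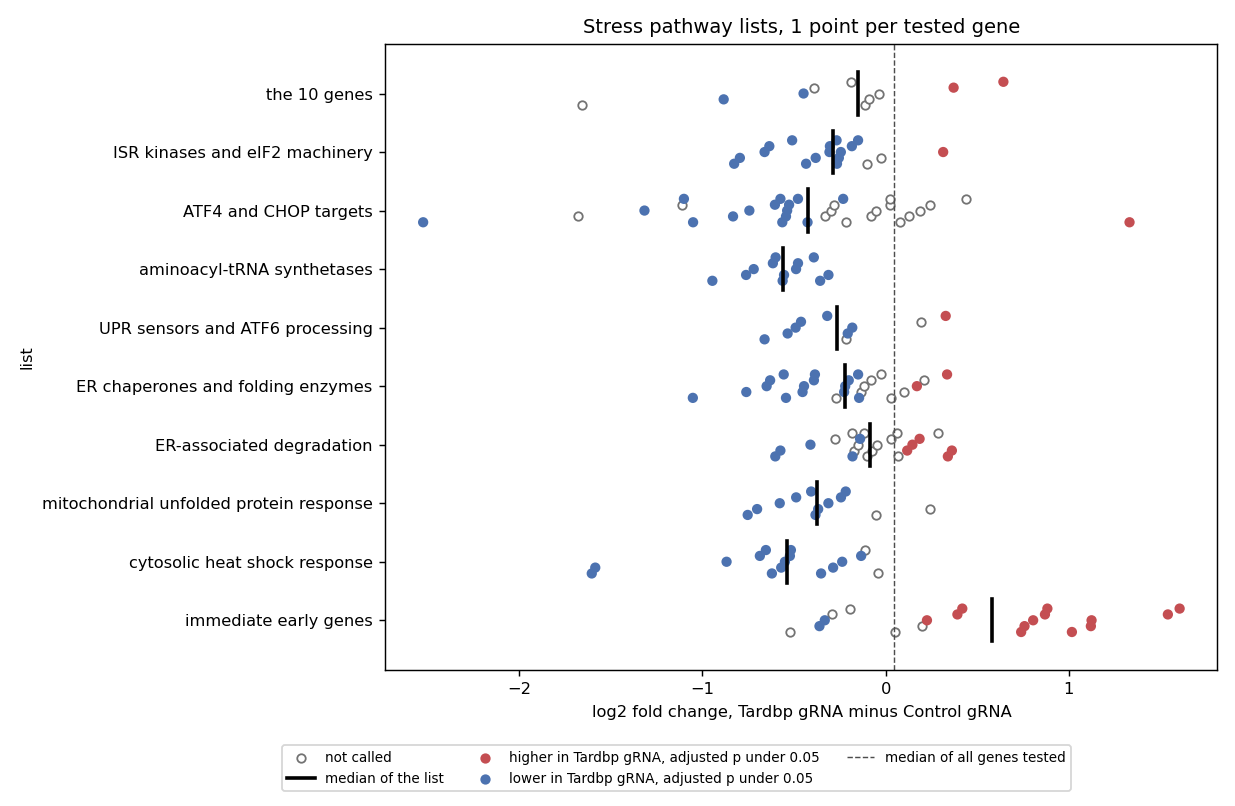
Log2 fold change of each tested gene in the 10 genes and in 9 pathway lists, with called genes coloured by direction, the median of each list (bars) and the median of all tested genes (dashed line, 0.05). The aminoacyl-tRNA synthetases lie wholly below 0 and the immediate early genes mostly above it, while the 10 genes fall on both sides.

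In RNA from whole sorted samples, fewer cells of a type and less RNA per cell cannot be told apart. Markers of other cells were therefore set beside these values. The 6 plasma cell markers, of interest because such cells are rich in Xbp1 and ER chaperones, summed to 2.09 to 7.02 CPM in Control gRNA and 3.82 to 9.08 CPM in Tardbp gRNA, with Tnfrsf17 at 0 in every library and only Iglc2 called (higher, edgeR adjusted p 0.0497). Sdc1 was lower without being called (log2 fold change -0.59, SE 0.27, edgeR adjusted p 0.0824). The 5 myeloid markers summed to 14.8 to 35.1 CPM in Control gRNA and 19.0 to 79.1 CPM in Tardbp gRNA. Among them only Lyz2 was called (higher, log2 fold change 1.58, SE 0.41, edgeR adjusted p 0.00417). Itgam went the other way without being called (log2 fold change -0.57, SE 0.25, edgeR adjusted p 0.0671). The 4 red cell precursor markers summed to 0.214 to 10.8 CPM and 6.17 to 111.8 CPM, and Hbb-bs (2.94, SE 0.75) and Hba-a1 (2.78, SE 0.67) were higher. None of the 4 B cell, 3 CD4 T cell or 3 natural killer cell markers was called, with sums of at most 6.55, 9.90 and 4.03 CPM. Their part in the differences of the stress genes was not tested.

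Deviations from the group means were compared between genes. After group means were removed, Pearson's r of log2 CPM over the 16 libraries was 0.821 for Hspa5 and Herpud1, 0.711 for Chac1 and Xbp1, 0.702 for Hspa5 and Xbp1, and 0.655 for Xbp1 and Herpud1. Chac1, at counts near 0, also had 0.535 with Hspa5 and 0.496 with Herpud1. Atf4 had its lowest values with Xbp1 (-0.426), Asns (-0.403) and Chac1 (-0.393), and its highest, 0.281, with Atf3. Ddit3 and Ppp1r15a, the pair that rose, had r = 0.427, and Ddit3 and Asns had r = -0.604. Set in the same way against the mean of the more abundant genes of each list (mean log2 CPM from 3 upward), Hspa5 followed the cytosolic heat shock genes most closely (0.88) and the ER chaperones less so (0.62). Asns followed the eIF2 machinery (0.73), the mitochondrial list (0.70), the ATF4 and CHOP targets (0.67) and the tRNA synthetases (0.65), while Ddit3 went against the ATF4 and CHOP targets (-0.73) and with the immediate early genes (0.59). Ppp1r15a also went with the immediate early genes (0.68). These values are descriptions over libraries that share a scaling, an RNA preparation and the division by number, and they carry no test.

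**Figure D4:**
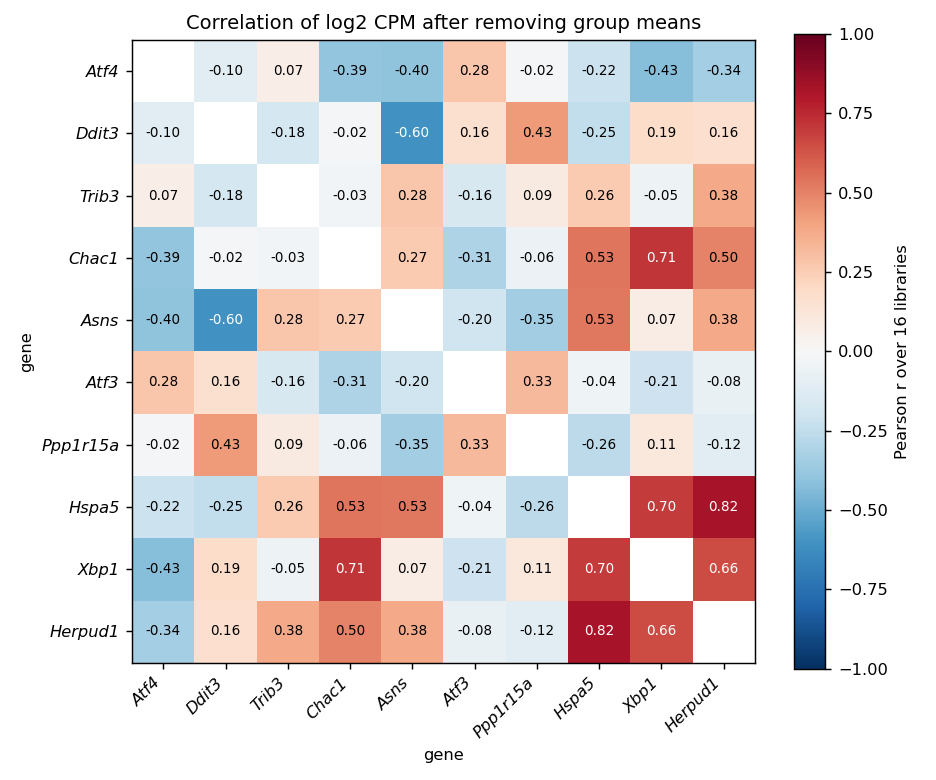
Pearson's r between the 10 genes over the 16 libraries, computed on log2 CPM after removing the mean of each group (red positive, blue negative). Hspa5, Xbp1 and Herpud1 have r from 0.655 to 0.821 with each other, Chac1 and Xbp1 have 0.711, and Ddit3 and Asns have the lowest value, -0.604.

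Of 39 annotated transcripts of the 10 genes, 24 passed the filter and edgeR called 5 of them, 2 higher (Ddit3-201 and Ppp1r15a-201) and 3 lower (Asns-201, Hspa5-202 and Hspa5-201), where 16.6% of all 40897 tested transcripts were called. By limma, 0 of 20 transcript shares passed both thresholds (adjusted p under 0.05, shift above 0.1), while 3 had an unadjusted p under 0.05; 0.63% of all shares were called. The widest was in Ppp1r15a, where Ppp1r15a-201 held 0.713 ± 0.127 of the counts with the Control guide and 0.855 ± 0.0809 with the Tardbp guide (SD, n = 8 each), which limma did not call (adjusted p 0.162), and Ppp1r15a-202 made up the rest.

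The authors' deposited values of percent spliced in (Psi, how much of a gene's RNA keeps a given stretch, 1 value per group, given as a fraction with no error and unknown depth) covered 52 stretches in 9 of the 10 genes. The 2 columns are named by letter only, and their order was taken from the study's text. In 35 of the 52 the authors' values differed by under 1 percentage point, and all 5 stretches over 5 points were in Ppp1r15a and Atf3. The last stretch of Ppp1r15a that ends at the upstream site (chr7:45522922-45523322, minus strand) had deposited Psi values of 0.984 (Control gRNA) and 0.865 (Tardbp gRNA). The stretch beyond it is only 5 bases long (chr7:45522917-45522921) and had 0.0161 and 0.134. These 2 stretches mirror each other and describe a single choice between ends 5 bases apart. The retained intron of Ppp1r15a (chr7:45525392-45525994) had 0.256 and 0.185. The last 1016 bases of Hspa5 (chr2:34776532-34777547) had 0.00129 in Control gRNA and 0.00113 in Tardbp gRNA. The longer Hspa5-201 held 0.154 and 0.126 of the estimated Hspa5 counts, and whether it includes these bases was not tested. The exon of Xbp1 with the IRE1 element (chr11:5524239-5524384) had 0.999 in both groups, which bears on the whole exon and not on the element.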

How the data were processed

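The 16 libraries, 8 per group, were made from RNA of sorted cells by SMART-Seq v4 with Nextera XT and read as pairs of 100 bases on 1 flow cell. The authors aligned the reads with HISAT2 2.1.0 to mm10 and deposited StringTie 2.1.0 estimated counts per gene and transcript, unnormalized and already whole. There were 1.89 to 2.02 estimated counts per read pair, and PCR copies were not removed. Deposited counts of read pairs (29714709 to 48164083 per library) came from the authors' library table. The authors' Psi values, a fraction per group from Whippet, were used as given, and the authors' differences of Psi and their probabilities were not used.

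Names and coordinates came from GENCODE M21 (GRCm38). In both count tables, 10 columns belong to none of these samples and were not used. Rows that name no gene (26248 with a bare number, and 97 spike-in rows that total 0) held 0.0836 to 0.132% of counts and were left out.

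The 10 genes, the 9 pathway lists and the marker lists were chosen with earlier results of these data known. The main test was the quasi-likelihood test of edgeR 4.0.16 (R 4.3.3; TMM; filterByExpr with minimum count 10, minimum total 15 and proportion 0.7), with Benjamini-Hochberg adjustment over all 16650 genes and a threshold of 0.05. CPM were scaled by TMM, with a prior count of 2 on the log2 scale. Single genes were also tested by exact two-sided permutation over all 12870 divisions of the libraries (smallest p 0.000155). Transcript shares were tested with limma 3.58.1. Open to naming were Tardbp, the 10 genes, the eIF2 kinases, Ern1, Atf6, and up to 3 highest and 3 lowest called genes of each list whose mean log2 CPM reached 3, and others only where the text says so. On simulated data for the Tardbp gRNA comparison with 16650 genes, the edgeR test recovered 47 of 100 changes of 0.5 and 69 of 100 changes of 1 on the log2 scale. It made 3 false calls. Only these genes were changed in the simulation, while 7783 were called in the real comparison. Adjustment is stricter where few genes change, so these recovery values do not carry over to the real comparison. Alternatives were other scalings, no low-count filter, DESeq2 1.42.0, blocks, covariates (RNA concentration, a deposited letter M or F), subsets of the library numbers and leaving out each library. Promoter windows came from RefSeq (GRCm38.p6). Upper-quartile scaling moved the higher share of called genes to 61.2% from 50.2%, and the median log2 fold change of all genes to 0.12 from 0.05.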

Additional observations from a re-analysis of the deposited data

Results flagged for a closer look

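Of 140 groups of 8 libraries examined (1 gene under 1 guide each), 14 held a library that lay far from the other 7 by Dixon's criterion; chance gives about 1 in 20, or 7 such groups. Among the 10 stress genes there were 2. The highest Control gRNA value of Ddit3, 10.3 CPM in number 4, stood above 6.24 to 7.74 CPM in the others. The lowest Control gRNA value of Trib3, 2.06 CPM in number 2, stood below 3.56 to 4.61 CPM.

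In Tardbp gRNA, library number 1 was the far one for 6 chaperone and biosynthesis genes, and in each it was the highest of its group. Mthfd2 had 190.3 CPM in it (142.6 to 160.0 CPM in the others), Tars 185.2 CPM (160.1 to 170.3 CPM), Hspd1 749.4 CPM (533.9 to 612.4 CPM) and Hsph1 266.6 CPM (135.1 to 182.5 CPM). Hsp90aa1 had 1208 CPM (745.7 to 936.4 CPM) and Ahsa1 278.9 CPM (243.4 to 255.9 CPM). The same library had the highest Hspa5 and Asns and the lowest Ddit3 and Ppp1r15a of its group, at 1731, 29.6, 7.67 and 12.1 CPM.

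In Control gRNA, number 1 was far from the rest for Sars (329.4 CPM, 287.4 to 307.1 CPM in the others) and Ahsa1 (355.7 CPM, 265.7 to 301.8 CPM). Dusp2 was high in number 2 of Control gRNA (31.3 CPM, 11.4 to 16.1 CPM in the others) and in number 3 of Tardbp gRNA (69.2 CPM, 20.6 to 40.6 CPM). Dnajb9 was low in number 2 of Tardbp gRNA (6.61 CPM, 8.99 to 10.6 CPM in the others), and Tardbp itself was low in number 3 (110.4 CPM, 129.8 to 147.2 CPM).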

How the results depend on the processing

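The directions of Ddit3, Ppp1r15a, Asns and Hspa5 held in every alternative run, and their calls were lost only with numbers 1 to 3 alone (Ddit3, Ppp1r15a, Hspa5) and with log2 RNA concentration added as a covariate (all 4). Numbers 1 to 3 alone (3 against 3 libraries) gave fewer calls by edgeR: 1696 genes, 1 of the 10 stress genes (4 at an unadjusted p under 0.05), 2 of the eIF2 kinases and machinery, 0 of the sensors (7 unadjusted), 8 ER chaperones, 3 degradation genes, 4 mitochondrial, 3 heat shock and 4 immediate early genes. The RNA concentration as a covariate gave 2697 genes, 0 of the 10 stress genes (2 unadjusted), 4 of the eIF2 machinery, 8 ATF4 and CHOP targets, 4 sensors, 4 degradation, 3 mitochondrial, 4 heat shock and 6 immediate early genes. The concentration does not overlap between the groups, and its part was not tested. The tRNA synthetases kept 11 calls in both. DESeq2 called 8226 genes, an adjusted p under 0.01 kept 5748, and leaving out 1 library gave 7265 to 7734; DESeq2 called 4 of the 10.

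These values, none of them called in the comparison of all 16 libraries, changed sign, and the cause was not tested: Trib3 in numbers 1 to 3 alone (0.14), Atf3 in numbers 4 to 8 alone (0.13) and from -0.63 to 0.25 with 1 library left out, and Herpud1 with upper-quartile scaling (0.038), in numbers 1 to 3 alone (0.011) and with the RNA concentration (0.032). Atf3 could not be fitted in numbers 1 to 3 alone, where it failed the low-count filter. With upper-quartile scaling 7951 genes were called, 4865 higher and 3086 lower, against 3906 and 3877 with TMM. Another 57 called genes were open to naming by the rule given with the processing. Of these, 19 kept the call in every alternative and 29 lost it only in one or both of the 2 settings above. Not all of the 57 appear in this text, and Ppp1r15b and Bbc3 are not among them. Same-numbered libraries deviated together only weakly (correlation -0.0048 to 0.16, over 0.1 for 2 of 8 numbers), so the numbers were not taken as pairs. With the library number as a replicate block, 7645 genes and 4 of the 10 stress genes (2 higher, 2 lower) were called, with 5 of their transcripts and 0 transcript shares. A test of the difference between the numbers 4 to 8 and 1 to 3, added after the data were seen, called 0 of 16650 genes by edgeR (558 at an unadjusted p under 0.05). Depth limits Chac1 and Atf3, whose libraries reach 0 counts.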

Other observations

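The deposited letter M or F stands under the heading sex and is not explained further. It occurs in both groups, though not evenly, as Tardbp gRNA numbers 1 to 4 all carry M. Used as a covariate, it left the 4 calls among the 10 stress genes as they were. With it 7362 genes were called in all and Eif2ak2 lost its call, and its interaction with the guide was called for 0 of 16650 genes by edgeR (662 at an unadjusted p under 0.05). Among the 10 genes, Chac1 had the one unadjusted p under 0.05 in that interaction (0.00582, adjusted p 0.9997).

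Of the Herpud1 counts, Herpud1-201 held 0.625 ± 0.0487 in Control gRNA and 0.578 ± 0.107 in Tardbp gRNA (SD, n = 8 per group), and Herpud1-205 held most of the rest. The spread of this share was thus wider in Tardbp gRNA, while the gene's CPM had a like SD in both groups (10.4 and 9.65 CPM). The deposited Psi of the pair of core exons of Atf3 that differed by over 5 percentage points went in opposite directions, from 0.847 to 0.898 and from 0.919 to 0.862. The gene had at most 57 counts in any library, and these are the authors' pooled values with no error.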
